A study of Mus musculus with 13 samples.

Results

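The regions described here were the rows of a deposited table whose class is named Pseudogenes, lying on autosomes and sharing no base with another row of that class. They numbered 10249 of the 240814 regions in the table. The class held 28505 rows, of which 26990 were autosomal, and 16741 of those shared a base with another row of the class and were left out. Of the rows left out, 12036 held 0 reads in both columns.

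The study used ChIP-seq on neural stem and progenitor cells (NSPCs) of mice, grown as neurospheres, floating clusters of dividing progenitors. The cells came from cortex and ganglionic eminence at E14.5, in mid-gestation, and were collected at passage 5, day 3 of culture. The genotypes were Kat7lox/lox NesCreT/+, in which the Kat7 gene is deleted where a nestin-driven Cre recombinase is active, and Kat7+/+ NesCreT/+, with Kat7 intact, so that both carried the Cre transgene. Of the 13 libraries, 4 from intact and 3 from deleted cells used an antibody to acetylated lysine 14 of histone H3 (H3K14ac), 3 from intact cells and 1 from deleted cells used an antibody to KAT7, and each of the 2 experiments had 1 IgG library. The values used were 1 merged H3K14ac column and 1 merged KAT7 column. Which libraries and which genotype entered each is not given in the sources used here, so no comparison between genotypes or with IgG was made.

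KAT7, also called HBO1, is a lysine acetyltransferase that works in a complex with JADE or BRPF scaffold proteins, an ING subunit and MEAF6, and is known for acetylating histone H3 on lysine 14. H3K14ac is found broadly in chromatin and is raised around active gene starts. A pseudogene is a gene copy that has lost the ability to make its protein, often an intronless copy of an mRNA put back into the genome, and is usually short and without a promoter of its own.

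The class label did not describe what most of these regions were. Every identifier in the class was a gene number followed by a model number, such as g314.t1, the form in which gene prediction programs number their models, and the 28505 rows came from 17646 gene numbers. The regions ran from 289 to 1901934 bases with a median of 48.7 kb, against 17.3 kb for the autosomal gene bodies of the same table and 0.904 kb for the pseudogenes that RefSeq annotates on autosomes. A match was counted where a region and a RefSeq gene (GRCm38.p6, the mm10 assembly) each covered at least 50% of the other. By that count 4836 regions (47.2%) matched a protein-coding gene, 4737 (46.2%) matched no gene, 513 (5.01%) matched an annotated pseudogene and 163 (1.59%) another RNA gene. The 513 were 5.42% of the 9472 autosomal RefSeq pseudogenes. The regions are therefore called gene-model regions below, and the 513 are described separately as pseudogene-matching regions.

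Many gene-model regions traced an annotated gene. In all, 4629 (45.2%) matched a row of the Gene Body class by the same rule, and 4595 of those (99.3%) lay on its strand. In those 4595 the region began a median of 58 bases downstream of the gene's annotated start. A CpG island near a transcription start site (TSS) shared a base with 5289 regions (51.6%), and 4278 regions (41.7%) held at least 1 annotated gene start.

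Promoters of 4 genes matched by regions with unequal KAT7 and H3K14ac reads are printed first, as examples of the sequences whose CG are counted below. The reads were counted in the gene-model regions and not in these windows, and of the 4 windows only that of Olig2 shared bases with its region. Each line gives 250 bases before and 50 after the RefSeq start, 5′ to 3′, from GRCm38.p6. Capitals mark CG, the CpG dinucleotide, which reads the same on both strands. OLIG2 (a basic helix-loop-helix factor of motor neuron and oligodendrocyte progenitors), FOXD1 (a forkhead factor) and the beta-1 adrenergic receptor ADRB1 come from regions where KAT7 reads exceeded H3K14ac reads. H2ac19, a gene for histone H2A, comes from a region with the opposite skew.
Olig2 (chr16:91225300-91225599, plus strand): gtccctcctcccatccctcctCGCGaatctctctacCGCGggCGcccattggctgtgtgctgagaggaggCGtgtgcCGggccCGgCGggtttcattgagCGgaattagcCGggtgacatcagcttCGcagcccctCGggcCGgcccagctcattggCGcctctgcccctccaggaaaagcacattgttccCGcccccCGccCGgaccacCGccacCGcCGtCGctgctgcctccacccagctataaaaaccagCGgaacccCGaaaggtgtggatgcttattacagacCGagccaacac
Foxd1 (chr13:98353995-98354294, plus strand): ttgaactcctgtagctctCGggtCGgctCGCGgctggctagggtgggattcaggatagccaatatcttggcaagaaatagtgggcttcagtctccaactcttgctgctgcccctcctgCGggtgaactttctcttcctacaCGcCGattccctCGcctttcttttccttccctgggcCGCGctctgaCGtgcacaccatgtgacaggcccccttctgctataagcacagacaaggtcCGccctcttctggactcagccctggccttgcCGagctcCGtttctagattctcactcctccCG
Adrb1 (chr19:56721867-56722166, plus strand): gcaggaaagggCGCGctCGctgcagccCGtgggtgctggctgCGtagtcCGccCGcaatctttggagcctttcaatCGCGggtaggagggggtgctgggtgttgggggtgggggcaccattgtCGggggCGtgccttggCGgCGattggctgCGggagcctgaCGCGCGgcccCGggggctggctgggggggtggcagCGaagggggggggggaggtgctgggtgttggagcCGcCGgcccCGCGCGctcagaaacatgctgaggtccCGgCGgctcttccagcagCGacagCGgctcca
H2ac19 (chr3:96240325-96240624, minus strand): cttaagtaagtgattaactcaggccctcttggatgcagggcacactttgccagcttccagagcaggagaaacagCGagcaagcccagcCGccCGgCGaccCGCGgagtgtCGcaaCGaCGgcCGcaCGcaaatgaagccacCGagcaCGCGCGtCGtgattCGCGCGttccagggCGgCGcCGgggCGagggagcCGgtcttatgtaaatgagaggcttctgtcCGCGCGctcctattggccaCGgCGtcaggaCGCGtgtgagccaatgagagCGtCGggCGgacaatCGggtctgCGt
The Olig2 window held 25 CG, the Foxd1 window 15, the Adrb1 window 28 and the H2ac19 window 36.

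Levels are given as RPKM, the reads of a region per kilobase of its length, scaled to the read total of the column in units of 1e6, where the totals were 141734087 reads for H3K14ac and 134111848 for KAT7. A level of a group is its summed reads over its summed length, followed by an exact Poisson 95% interval. With 1 merged column per antibody there are no replicates, so the intervals cover counting error only, no test between conditions was possible, and the spread over regions is given as quartiles. Background that an IgG library would measure is part of every level.

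The gene-model regions were near uniform in both columns. A region held 12 to 115419 H3K14ac reads (median 2669) and 15 to 118337 KAT7 reads (median 2573), and none was without reads. The median level was 0.390 RPKM for H3K14ac and 0.396 RPKM for KAT7, and the 5th to 95th percentiles were 0.330 to 0.466 and 0.345 to 0.485. Gene bodies had medians of 0.381 and 0.399, and CpG islands near a TSS had 0.460 and 0.491. Across the 10248 regions at or below 5 RPKM in both columns, the Spearman correlation of the 2 levels was 0.43. These regions share the same libraries and the same read totals.

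**Figure D1:**
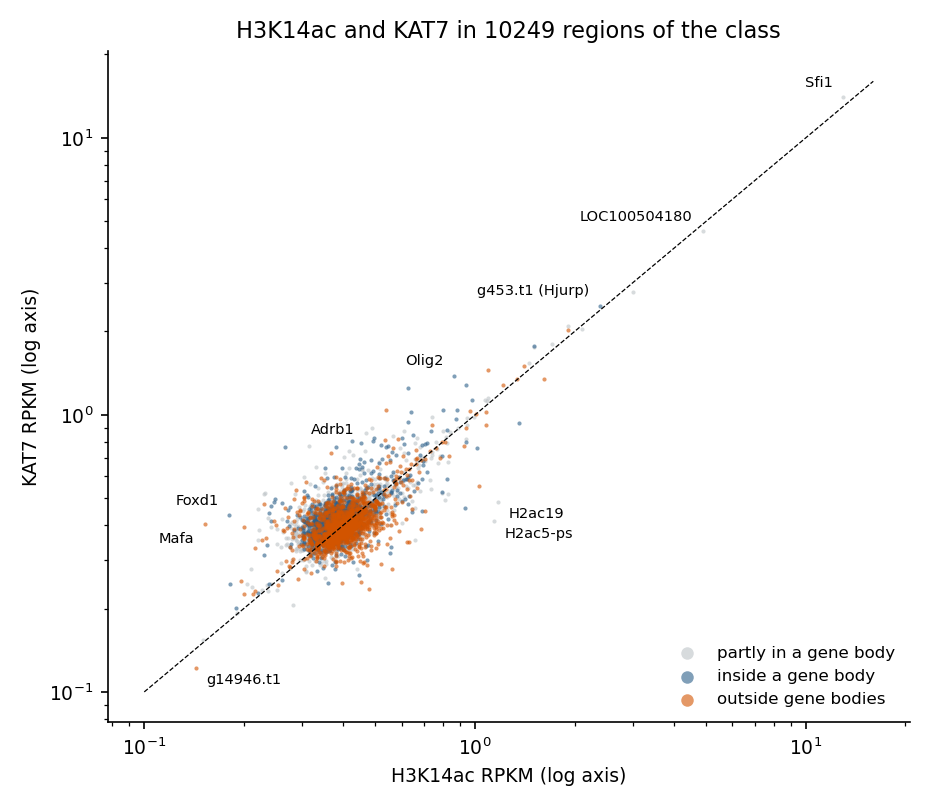
H3K14ac RPKM (x axis, log) and KAT7 RPKM (y axis, log) of the 10249 gene-model regions, 1 point each, coloured by position relative to Gene Body rows, with the line of equal levels dashed. Most points sit in a compact cloud around 0.390 and 0.396 RPKM, a string of regions runs up the line to Sfi1 at 12.96 and 14.04 RPKM, and a few named regions lie off the line.

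Short regions had higher levels than long ones in both columns. Reads that reach over an edge can raise the level of a short region, and their part in this order was not tested. H3K14ac stood at 0.492 RPKM (0.463 to 0.522) in the 36 regions of 201 to 500 bases, 0.465 (0.457 to 0.472) in the 293 of 501 to 1000 bases, 0.439 (0.435 to 0.443) in the 534 of 1001 to 2000 bases and 0.395 in the 9385 above 2000 bases. KAT7 stood at 0.504 (0.474 to 0.535), 0.473 (0.465 to 0.481), 0.457 (0.453 to 0.461) and 0.395 RPKM in the same bands. The intervals of neighbouring bands overlapped between 201 to 500 and 501 to 1000 bases in both columns, and did not overlap between the longer bands. No region had 200 bases or fewer. The order did not hold in every band with rows that share bases kept, where H3K14ac was 0.265 RPKM at 1001 to 2000 bases and 0.278 above 2000, nor with X and Y included, where it was 0.397 at 501 to 1000 and 0.408 at 1001 to 2000 bases. The spread over regions was wider than these steps: the quartiles of H3K14ac were 0.381 to 0.514 at 501 to 1000 bases and 0.367 to 0.474 at 1001 to 2000 bases.

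Gene bodies showed the same order by length, so it was not particular to the class. Their median H3K14ac level was 0.496 RPKM at 201 to 500 bases, 0.455 at 501 to 1000, 0.414 at 1001 to 2000 and 0.379 above 2000 bases, and the KAT7 medians were 0.503, 0.442, 0.419 and 0.397. The class medians were 0.481, 0.444, 0.418 and 0.389 for H3K14ac and 0.494, 0.451, 0.435 and 0.395 for KAT7. Because 91.6% of the gene-model regions exceeded 2000 bases, that band was split further. H3K14ac then fell to 0.382 RPKM at 10001 to 20000 bases and stood at 0.397 above 100000 bases, whereas KAT7 went from 0.433 at 2001 to 5000 bases to 0.394 above 100000 bases.

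The KAT7 to H3K14ac ratio moved with length as well. It was 1.02 (0.939 to 1.12) at 201 to 500 bases, 1.02 (0.994 to 1.04) at 501 to 1000 and 1.04 (1.03 to 1.06) at 1001 to 2000 bases. In the finer split it was highest at 2001 to 5000 bases, at 1.07 (1.06 to 1.08), and lowest above 100000 bases, at 0.992. The antibodies share no absolute scale, so only differences in the ratio between groups of regions are read. At 1001 to 2000 bases the ratio was 0.996 (0.979 to 1.01) once regions sharing a base with a CpG island, an enhancer row, an IS row (a class whose abbreviation the table does not explain) or a promoter row were left out.

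**Figure D2:**
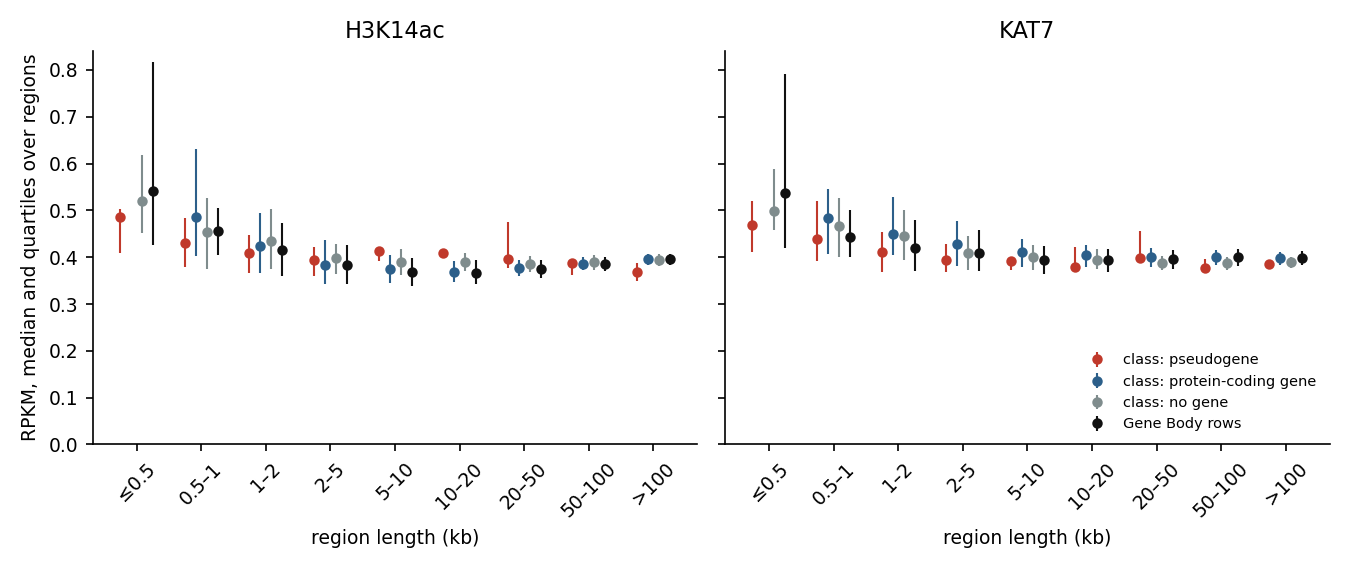
Median RPKM with quartiles over regions (y axis) by region length in kb (x axis) for H3K14ac (left) and KAT7 (right), in gene-model regions matching a pseudogene, a protein-coding gene or no gene, and in Gene Body rows. Groups under 5 regions are not drawn. All groups are highest at the short end and lie close to 0.4 RPKM at the long end.

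Position relative to annotated gene bodies divided the class into 2246 regions wholly inside a Gene Body row, 2175 that shared no base with one (outside) and 5828 partly inside. Of the inside regions, 1465 matched that gene body and 781 were nested in a larger one. The outside regions were not a set without genes: 240 matched a RefSeq protein-coding gene, 387 a pseudogene and 1480 no gene.

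KAT7 was higher inside gene bodies than outside at nearly every length. Compared within the 4 length bands, the KAT7 level inside was 1.036 times that outside (1.035 to 1.037). Bands were weighted by summed length, so this is nearly the value above 2000 bases alone, which was also 1.036. In the 9 finer bands the inside level exceeded the outside level in 8, and the interval included 1 in the shortest, with ratios from 1.03 to 1.15. At 1001 to 2000 bases KAT7 was 0.498 RPKM over 128 inside regions and 0.434 over 269 outside. At 20001 to 50000 bases it was 0.405 over 452 and 0.389 over 336. The quartiles of single regions overlapped in both bands, from 0.393 to 0.545 inside against 0.379 to 0.463 outside at 1001 to 2000 bases and from 0.386 to 0.424 against 0.369 to 0.397 at 20001 to 50000 bases. The regions nested in a larger gene body, which do not trace it, were above the outside regions in 9 of 9 bands, by 1.02 to 1.21 times. With regions sharing a base with a CpG island, enhancer, IS or promoter row left out, the KAT7 ratio of inside to outside was 1.005 (1.002 to 1.008). The direction holds only for regions sharing no base with another row of the class: with rows that share bases kept, the ratio turned to 0.601 for KAT7 and 0.582 for H3K14ac. Of the 16741 autosomal rows that share bases, 12036 held 0 reads in both columns, and their part in this turn was not tested.

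H3K14ac showed no single direction. The ratio of inside to outside was 1.004 (1.003 to 1.005) over the 4 bands, it was 0.988 (0.985 to 0.991) without the regions sharing a base with such elements, and 0.995 when medians over regions were compared. Above 2000 bases alone the ratio of summed levels was also 1.004. In the finer bands H3K14ac was higher inside in 3, lower in 4 and level within counting error in 2, with ratios from 0.963 to 1.14. The bands with a higher inside level were those at 501 to 1000 bases (1.07), 1001 to 2000 bases (1.06) and above 100000 bases (1.01). From 5001 to 50000 bases H3K14ac was 0.963 to 0.969 times the outside level while KAT7 was 1.04 to 1.06 times it.

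A similar divergence appeared at CpG islands. Regions of 2001 to 5000 bases that shared a base with a CpG island near a TSS had 0.460 RPKM of KAT7 (n = 351) against 0.413 without one (n = 482), a ratio of 1.11 (1.10 to 1.13). Their H3K14ac was 0.401 against 0.408, a ratio of 0.984 (0.974 to 0.994). Over the 9 bands KAT7 was higher with an island in 7 and level within counting error in 2. H3K14ac was higher with an island in the 3 bands up to 2000 bases, by 1.11 to 1.27 times, and lower in the 6 longer bands, at 0.913 to 0.989 times the level without one.

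**Figure D3:**
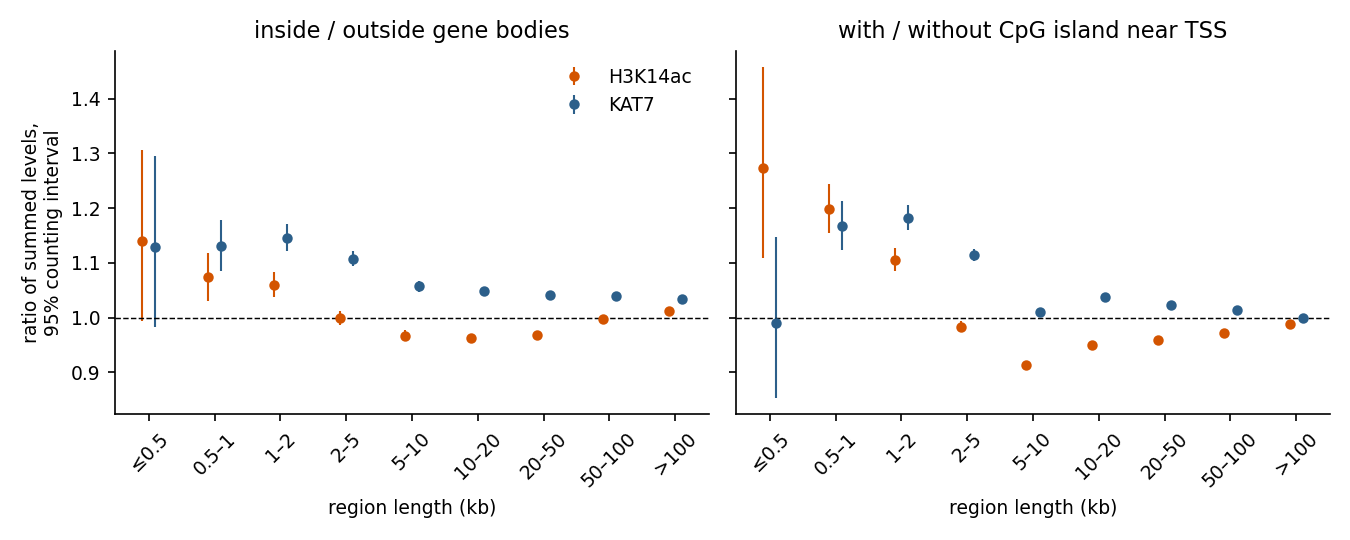
Ratio of summed levels (y axis, with 95% counting intervals) by region length in kb (x axis) for H3K14ac and KAT7, inside over outside gene bodies (left) and with over without a CpG island near a TSS (right). KAT7 lies above 1 in 8 of 9 bands on the left and 7 of 9 on the right, while H3K14ac lies on both sides of 1.

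The table also carried an expression class for gene bodies, with the values Top, Other and Bottom, whose source is not given in the sources used here. Among regions matching a gene body, 206 matched a Top gene and 169 a Bottom gene. KAT7 was 0.424 RPKM in the Top regions and 0.376 in the Bottom regions, a ratio of 1.127 (1.124 to 1.131), and was higher in Top regions in 7 of 7 length bands that could be compared, by 1.10 to 1.84 times. H3K14ac was 0.401 and 0.381, a ratio of 1.051 (1.047 to 1.054), higher in 6 bands and lower in 1, at 20001 to 50000 bases (0.978). The largest ratios, 1.84 for KAT7 and 1.61 for H3K14ac, were at 1001 to 2000 bases, where 12 Top regions stood against 6 Bottom regions.

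The 513 pseudogene-matching regions were short, and 387 lay outside gene bodies. Their KAT7 level was below that of regions matching a protein-coding gene in 6 of 8 length bands. At 1001 to 2000 bases the median KAT7 level was 0.411 RPKM (quartiles 0.369 to 0.454, n = 192) in pseudogene-matching and 0.449 (0.404 to 0.529, n = 173) in protein-coding regions. The H3K14ac medians were 0.409 and 0.424. H3K14ac had no single direction over the 8 bands: the summed level of pseudogene-matching regions was higher in 3, lower in 4 and level within counting error in 1, and their median was higher in 5. At 2001 to 5000 bases, for example, the H3K14ac medians were 0.395 (n = 92) and 0.382 (n = 381). At 501 to 1000 bases the KAT7 medians were 0.438 (n = 163) and 0.484 (n = 54), and the H3K14ac medians 0.430 and 0.485. The 2 bands in which the summed KAT7 level was higher, by 1.17 and 1.25 times, held 5 and 14 pseudogene-matching regions, and the median over regions was lower there too.

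Ribosomal protein pseudogenes, retrocopies of the abundant mRNAs that encode ribosomal proteins, made the largest of the listed families among the pseudogene-matching regions, with 34 regions of a median 693.5 bases. Their H3K14ac levels ran from 0.296 to 0.621 RPKM with a median of 0.405, and their KAT7 levels from 0.269 to 0.644 with a median of 0.433. The KAT7 to H3K14ac ratio interval included 1 in 31 of the 34, lay above 1 in 2 (Rps18-ps5 and Rpl27a-ps4) and below 1 in 1 (Rpl19-ps3). These shares, 5.88% above and 2.94% below, were near the 7.41% and 5.07% of all pseudogene-matching regions. Over the whole class, whose regions are mostly longer and hold more reads, 24.8% lay above 1 and 15.9% below. The shortest region of the class, Rpl38-ps1 (g11331.t1, chr4:138425763-138426051), held 16 H3K14ac and 19 KAT7 reads, or 0.392 RPKM (0.224 to 0.637) and 0.492 RPKM (0.296 to 0.768), so a single copy of this size was resolved only to within those bounds. The 9 regions matching a ribosomal protein gene had higher medians, 0.511 RPKM for H3K14ac and 0.534 for KAT7. Heat shock protein and high mobility group names had 3 pseudogene-matching regions each. Gapdh, olfactory receptor, cyclophilin, hnRNP, keratin, Zfp, antigen receptor and KAT7 complex names had 0, and the remaining listed families had 1 each.

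A region was counted as reaching a gene-like level where the lower bound of its interval lay above the median of gene bodies in the same length band. For H3K14ac 4150 of 10248 regions (40.5%) did so, against a background of 25.6% of gene bodies and 30.2% of H3K9me3 domain rows, the latter being regions of a repressive mark. The surplus over gene bodies was smaller with the finer bands, 3012 regions (29.4%) against 23.8% of gene bodies. For KAT7 2310 regions (22.5%) reached a gene-like level, against 23.5% of gene bodies and 12.8% of H3K9me3 rows. With the finer bands these were 2251 (22%) and 23.4%. The KAT7 share was thus near that of gene bodies themselves.

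Between regions inside and outside gene bodies the shares differed more for KAT7 than for H3K14ac. Inside gene bodies 35.8% of 2246 regions reached the KAT7 level of genes, and outside 8.87% of 2175 did. The H3K14ac shares were 42.1% and 35.9%. Among regions matching a protein-coding gene 31.5% reached the KAT7 level, among those matching no gene 15.2%, and among pseudogene-matching regions 7.80%, or 40 of 513. For H3K14ac the shares were 38.7%, 45.4% and 9.55%, or 49 of 513. Short regions have few reads and wide intervals, which lowers their share: 8.33% of the regions at 201 to 500 bases reached the H3K14ac level against 42.8% above 2000 bases. Of the 2009 regions that shared no base with a CpG island, enhancer, IS or promoter row, 642 reached the H3K14ac and 193 the KAT7 level. Of all 10248 regions 4150 (40.5%) and 2310 (22.5%) did so.

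Both columns reached the median level of islands close to a TSS in 207 regions (2.02%). Over all lengths together this was near the background, 1.61% of gene bodies and 2.07% of H3K9me3 rows. By length the share was 2.78% at 201 to 500 bases, 4.78% at 501 to 1000, 8.99% at 1001 to 2000 and 1.53% above 2000 bases. The background was not split by length. Of the 207, 103 matched no gene, 86 a protein-coding gene and 15 a pseudogene, and 119 shared a base with an island. These were 2.17%, 1.78% and 2.92% of all class regions with those matches. With an island 2.25% of regions were counted and without one 1.77%, against 2.02% of the class. Of the 207, 104 lay within 1 Mb of another, and 66 fell in 13 spans that held 3 or more. The median distance from any gene-model region to the nearest other was 19797 bases, and whether the 207 lie closer together than other regions was not tested.

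The largest span, on chromosome 4 (chr4:145576842-147738740), held 17 of them among its 19 gene-model regions, with H3K14ac from 0.515 to 1.41 RPKM, KAT7 from 0.511 to 1.5 and a ratio of 1.04 (1.03 to 1.05). The longest, g11415.t1 with 466057 bases, had 1.09 RPKM of H3K14ac and 1.12 of KAT7 and matched no gene. Pseudogene-matching regions in the span included Gm13246 (g11401.t1, 1.41 and 1.5 RPKM) and Gm13035 (g11403.t1, 1.08 and 0.92 RPKM). A second span on chromosome 5 (chr5:93481819-95594875) held 8 of 8, among them regions matching Pramel36, Pramel37, Pramel46 and Pramel49 of the Prame-like gene family, with H3K14ac from 0.531 to 0.707 RPKM and KAT7 from 0.534 to 0.696. Spans were drawn around regions already counted as high in both columns, so high levels in both follow from that rule. Other spans were less filled, with 4 of 16 regions on chromosome 12 and 5 of 11 in a span on chromosome 8.

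The third span, on chromosome 1 (chr1:88209045-88701695), held 5 of 5. The region at the start of Hjurp, which encodes the chaperone that places the centromeric histone CENP-A, was highest at 2.39 RPKM (2.24 to 2.54) of H3K14ac and 2.48 (2.32 to 2.64) of KAT7 (g453.t1, chr1:88274554-88277495). The region matching Hjurp itself (g452.t1) had 1.51 (1.44 to 1.57) and 1.78 (1.71 to 1.85) RPKM, and the neighbour matching Mroh2a (g451.t1) had 2.11 (2.08 to 2.14) and 2.04 (2.01 to 2.07). The other 2 regions were lower, at 0.74 in both columns for Trpm8 (g454.t1), the cold-sensing channel gene, and at 0.59 and 0.76 for Arl4c (g455.t1).

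The highest level of all was at Sfi1, which encodes a centrosomal protein. Its region (g1892.t1, chr11:3130607-3193435) held 115419 H3K14ac reads and 118337 KAT7 reads, or 12.96 and 14.04 RPKM, and as the 1 region above 5 RPKM it was set apart from all group levels. Next came LOC100504180 (g1301.t1, chr10:58222289-58225305) at 4.88 RPKM (4.67 to 5.09) of H3K14ac and 4.59 (4.38 to 4.80) of KAT7. Its neighbour over Duxf3 (g1302.t1, chr10:58227177-58236865), a homeobox gene of the Dux array active in the earliest embryo, had 3.01 (2.92 to 3.10) and 2.77 (2.68 to 2.86) RPKM. Pisd-ps2, a pseudogene of phosphatidylserine decarboxylase (g6440.t1, chr17:3061330-3084685), had 1.91 (1.86 to 1.96) and 2.08 (2.03 to 2.14) and was the highest of the pseudogene-matching regions in both columns. The others among the 10 highest were g4603.t1 on chromosome 14 (1.91 and 2.03 RPKM), g415.t1 on chromosome 1 (1.71 and 1.80), g6881.t1 on chromosome 17 (1.51 and 1.75), g14950.t1 on chromosome 8 (1.62 and 1.35) and, for KAT7, g14755.t1 on chromosome 8 (1.45 and 1.54). The KAT7 to H3K14ac ratio was between 0.832 and 1.18 in all of these. None was high in 1 column alone. Whether background, or reads from near-identical copies elsewhere, added to these levels or to those of the spans above was not tested. At the other end of the length range, the longest region (g13488.t1, chr7:7671442-9573375) spanned a cluster of Vmn2r vomeronasal receptor genes, which serve pheromone sensing, and had 0.346 RPKM (0.344 to 0.348) of H3K14ac and 0.359 (0.357 to 0.362) of KAT7.

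Other regions had unequal columns. The interval of the KAT7 to H3K14ac ratio lay above 1 in 2546 regions (24.8%), against 33.9% of gene bodies, and below 1 in 1628 (15.9%), against 8.98% of gene bodies. Of regions inside gene bodies 33.5% were above 1, and of regions outside 6.76%. With a CpG island near a TSS the share above 1 was 37.7%, and without one 11.2%.

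The regions most skewed to KAT7 had ratios above 2. The highest ratios by lower bound were at a region in Rbm15b, an RNA-binding protein gene (g16312.t1, 2.88, 2.30 to 3.62), at Adrb1 (g8253.t1, 2.45, 1.93 to 3.12), at Mafa, a basic leucine zipper factor of beta cells (g5466.t1, 2.65, 1.92 to 3.72), at Foxd1 (g4390.t1, 2.40, 1.74 to 3.36) and at the homeobox gene Tlx2 (g12975.t1, 2.26, 1.68 to 3.06). The Foxd1 region (chr13:98354546-98356697) held 55 H3K14ac and 125 KAT7 reads, or 0.180 RPKM (0.136 to 0.235) and 0.433 RPKM (0.361 to 0.516). Adrb1 (chr19:56722295-56724579) held 102 and 236 reads, or 0.315 (0.257 to 0.382) and 0.770 RPKM (0.675 to 0.875). Mafa (chr15:75745496-75747949) held 53 and 133 reads, or 0.152 (0.114 to 0.199) and 0.404 RPKM (0.338 to 0.479). H3K14ac lay below the class's 5th percentile in all 5, at 0.267 RPKM in g16312.t1 and 0.230 in Tlx2 (g12975.t1). KAT7 ranged more widely, from 0.404 RPKM in Mafa, close to the class median, to 0.770 in Adrb1.

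The next 15 by the same measure were read by name only, since no list of transcription factor genes was counted over all regions. They included the forkhead genes Foxc1 (2.02), Foxc2 (1.98), Foxd3 (1.97) and Foxa2 (1.73), the homeobox genes Hmx3 (2.06) and Evx1 (1.57), and Sox21 (1.84). The ranking used the lower bound of this ratio, so intervals above 1 follow from the choice. Olig2 differed in having both columns high: its region (g6376.t1, chr16:91225576-91227535) held 240 H3K14ac and 364 KAT7 reads, or 0.864 and 1.39 RPKM, a ratio of 1.60. Fbxl14 (1.89), an F-box protein gene, and Pcbp1 (1.83), an RNA-binding protein gene, were also among the 15, as was Gm13233 (g11408.t1, 1.93), a pseudogene in the chromosome 4 span. These 15 and the low counterparts below were listed after the values had been seen.

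The 2 regions most skewed to H3K14ac matched histone genes. H2ac5-ps, a histone H2A pseudogene (g3947.t1, chr13:23745963-23746395), held 70 H3K14ac and 24 KAT7 reads, or 1.14 RPKM (0.891 to 1.44) and 0.414 RPKM (0.265 to 0.616), a ratio of 0.36 (0.22 to 0.58). H2ac19 (g10119.t1, chr3:96239742-96240295) held 92 and 36 reads, or 1.17 (0.946 to 1.44) and 0.485 RPKM (0.340 to 0.672), a ratio of 0.41 (0.27 to 0.61). The other 3 of the 5 lowest were g10115.t1 beside the start of Bola1 (0.49, 0.34 to 0.70), g14659.t1 near Ccnd1, the cyclin D1 gene (0.54, 0.42 to 0.69), and g5715.t1 on chromosome 15 (0.69, 0.63 to 0.75). In these regions KAT7 was at or above the class median while H3K14ac exceeded the class's 95th percentile.

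**Figure D4:**
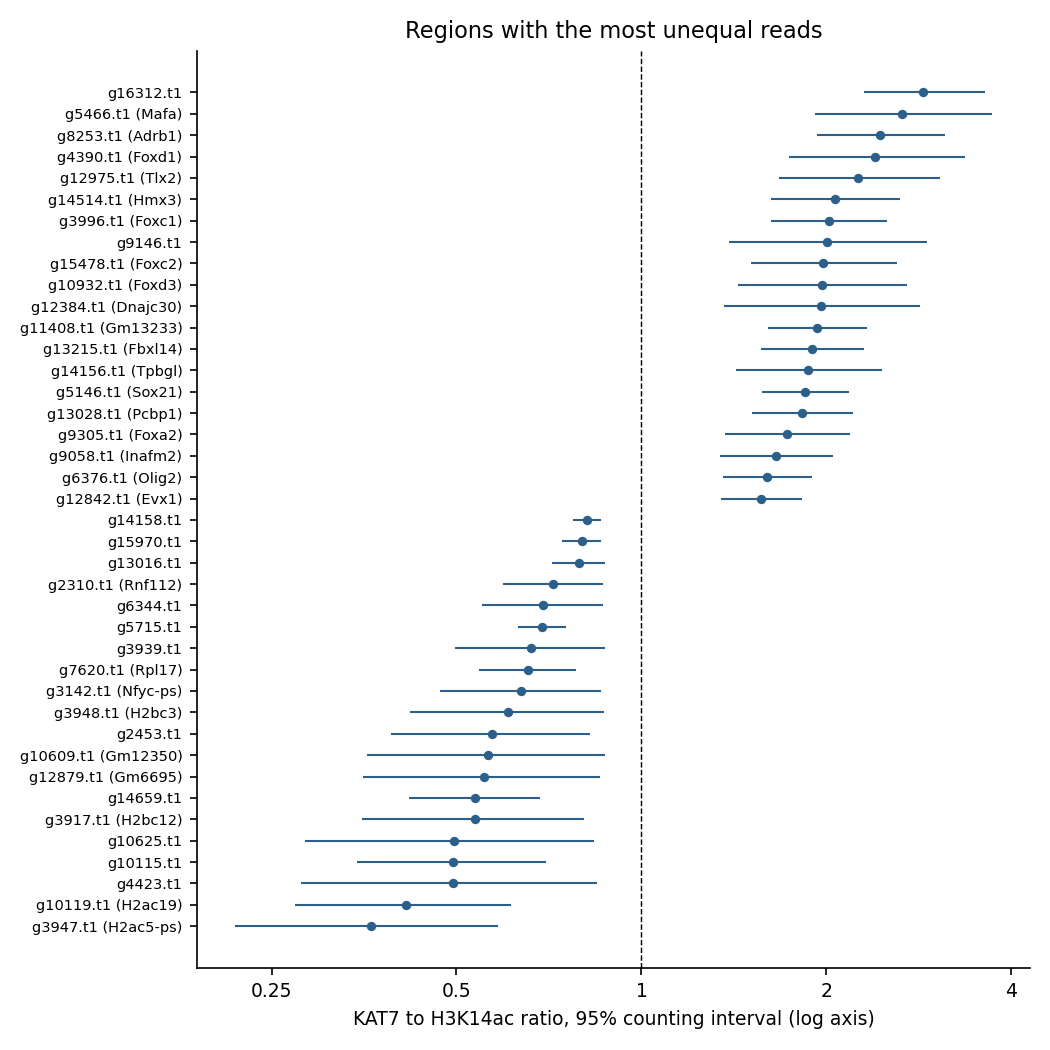
KAT7 to H3K14ac ratio (x axis, log) with 95% counting intervals for the 20 gene-model regions with the highest lower bound and the 20 with the lowest upper bound, among regions with at least 50 reads, with matched gene symbols. The upper group runs from 1.57 at Evx1 to 2.88 at g16312.t1, and the lower group reaches 0.36 at H2ac5-ps.

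Among the 23 regions matching a protein-coding histone gene the median level was 0.620 RPKM for H3K14ac and 0.482 for KAT7, with H3K14ac from 0.308 to 1.17 and KAT7 from 0.271 to 0.755. The ratio interval lay below 1 in 4, above 1 in 1 and included 1 in 18. The share below 1 was 17.4%, against 15.9% of the whole class, 12.1% of regions matching a protein-coding gene and 5.07% of pseudogene-matching regions. The histone regions had a median length of 846 bases, so their counting precision differs from that of the mostly longer class. H2bc12 (g3917.t1, 0.658 and 0.352 RPKM, ratio 0.54) and H2bc3 (ratio 0.61) were among the 4. The 1 above was H2az1 (g10376.t1, 0.329 and 0.552 RPKM, ratio 1.68, 1.30 to 2.17), which encodes the replacement variant H2A.Z and is not one of the clustered genes expressed during DNA replication. Most of these genes are single exons of under a kilobase with near-identical copies, so reads may not be assigned to 1 copy.

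Of the genes for KAT7 complex subunits, 3 matched a gene-model region. Jade1 (g9793.t1) had 0.369 RPKM of H3K14ac and 0.381 of KAT7, Meaf6 (g11151.t1) 0.322 and 0.375, and Brd1 (g5676.t1) 0.366 and 0.400. The ratio interval lay above 1 for Meaf6 (1.17, 1.06 to 1.28) and Brd1 (1.09, 1.04 to 1.15) and included 1 for Jade1 (1.03, 0.993 to 1.07). It lay above 1 in 24.8% of the whole class and in 37.3% of regions matching a protein-coding gene. In H3K14ac all 3 lay below the class's lower quartile of 0.370 RPKM, and Meaf6 also below its 5th percentile of 0.330. The lower quartile of all regions matching a protein-coding gene was 0.366 RPKM, below Jade1 and close to Brd1. In KAT7 Meaf6 lay just below the class's lower quartile of 0.378 RPKM, and Jade1 and Brd1 lay between the class quartiles.

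The promoters of regions skewed to KAT7 were richer in CG. A promoter window was found by symbol and strand for 3860 regions. The median number of CG in the 300 bases was 25 for the 1484 with a ratio interval above 1, 18 for the 1930 whose interval included 1 and 14 for the 446 below 1, and the median G+C content was 64.0%, 60.3% and 59.0%. Over all 31396 autosomal windows the median was 7 CG and 94.8% held at least 1, against 99% of the 3860. The windows of Olig2 and Adrb1 printed above sit at or above the median of their group, Foxd1 with 15 sits below it, and H2ac19 with 36 CG lies far above the median of the regions skewed to H3K14ac. The counts describe the sequence only.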

How the data were processed

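ChIP-seq reads had been reduced by the authors to a deposited table of read counts and RPKM values for 240814 regions in 12 classes, with 1 merged column per antibody. Per the submitters' processing notes the genome was mm10, and featureCounts, Bowtie2, deepTools, Picard and SAMtools were used, with no role stated for any of them. The meaning of SC and gc in the column names was not stated. The deposited RPKM equalled the count over the region's end minus start and 1 total per column for 100% of regions with a count (relative tolerance 1e-06). The deposited counts were used as they stand.

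From these, Python 3.11.15 with pandas 2.3.3, numpy 2.4.6 and scipy 1.17.1 computed summed levels with exact Poisson 95% intervals and ratios with exact binomial intervals (checked on simulated data). Both cover counting error only and treat reads as independent. Fixed length bands ended at 200, 500, 1000 and 2000 bases; 1 region above 5 RPKM was set apart. Inside-over-outside ratios compared regions within a band and were averaged over bands as logarithms weighted by region length, with a normal 95% interval from the counts. Regions were named as the 10 highest lower bounds per column, the 5 extremes of the ratio each way (at least 50 reads), the longest, the shortest and listed gene families. The regions and lists were chosen with earlier results of these data known. The finer bands, the 50% match rule, the CpG island split, the 1 Mb spans, the tightened ribosomal and Eef1 name patterns, the further 15 ratio extremes, the lowest regions and the highest pseudogene matches were chosen after values had been seen.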

Additional observations from a re-analysis of the deposited data

How the results depend on the processing

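Every level rests on 1 merged column per antibody, and neither the spread between cultures nor the effect of Kat7 deletion was measured. No paired analysis was possible because the merged columns carry no replicate numbers. Of 133 values recomputed under an alternative, 72 kept their direction and stayed within the counting interval of the reported value or, for counts of regions, within 1.5 times; no value changed when regions with a mean below 0.1 RPKM were left out, since there were none. Levels are given below in the order 201 to 500, 501 to 1000, 1001 to 2000 and above 2000 bases.

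With X and Y chromosomes included, H3K14ac was 0.440, 0.397, 0.408 and 0.382 RPKM, KAT7 0.454, 0.406, 0.424 and 0.382, the ratio of KAT7 to H3K14ac above 2000 bases 1.0003, and inside over outside 1.09 for H3K14ac and 1.12 for KAT7. The rows so added were low in both columns. Median H3K14ac was 0.205 RPKM on X and 0.206 on Y, against 0.390 on autosomes. Median KAT7 was 0.207 on X and 0.214 on Y, against 0.396. With regions that share bases kept, many of which hold 0 reads, H3K14ac was 0.382, 0.329, 0.265 and 0.278, KAT7 0.393, 0.335, 0.277 and 0.278, the ratio above 2000 bases 1.001, and inside over outside reversed to 0.582 and 0.601. In both settings the order by length no longer held in every band.

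With regions sharing a base with a CpG island, enhancer, IS or promoter row left out, H3K14ac was 0.462, 0.450, 0.430 and 0.396, KAT7 0.454 and 0.428 at 501 to 1000 and 1001 to 2000 bases, and the KAT7 to H3K14ac ratio 0.996 at 1001 to 2000 bases (reversed) and 0.997 above 2000. Inside over outside was 0.988 for H3K14ac (reversed) and 1.005 for KAT7. Of the 2009 regions left, 642, 193 and 41 reached the gene H3K14ac, gene KAT7 and island levels, against 4150, 2310 and 207 of all 10248.

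With regions above 1 RPKM left out, a choice made after seeing the data, H3K14ac was 0.455, 0.429 and 0.393 from 501 bases up, KAT7 0.446 and 0.393 from 1001 bases up, and inside over outside 1.012 and 1.045. By medians over regions H3K14ac was 0.444, 0.418 and 0.389 from 501 bases up, KAT7 0.451, 0.435 and 0.395, the KAT7 to H3K14ac ratio 1.02 and 1.008 from 1001 bases up, and inside over outside 0.995 for H3K14ac (reversed) and 1.05 for KAT7. Keeping Sfi1 gave 0.396 and 0.395 above 2000 bases. Totals taken from gene bodies gave KAT7 to H3K14ac ratios of 1.02 and 0.978 from 1001 bases up.

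Counting 1 shared base as inside gave inside over outside of 1.0005 for H3K14ac and 1.02 for KAT7, and 10 bands of equal size gave 1.006 and 1.04. Leaving out outside regions that match a protein-coding gene, also chosen after seeing the data, gave 1.035 for KAT7. The H3K14ac difference between inside and outside thus had no stable direction, and the KAT7 difference kept its direction in every alternative except that keeping regions that share bases. For the changes other than those made by fewer or other regions entering, the cause was not tested.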

Other observations

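Some gene-model regions lay far below the class median in both columns. These were listed after their values had been seen, and the same 4 were among the 5 lowest by upper bound in each column. The lowest was g14946.t1 (chr8:55116002-55351506) at 0.143 RPKM (0.139 to 0.147) of H3K14ac and 0.122 (0.119 to 0.126) of KAT7, over 235505 bases. Intu (g9784.t1, chr3:40540789-40701626), which encodes a planar cell polarity effector needed for cilia, had 0.151 and 0.153 RPKM. The region g9570.t1 on chromosome 2 had 0.191 and 0.193 RPKM, and Fam177a2 (g3377.t1) on chromosome 12 had 0.189 and 0.201. Only g14946.t1 of these lay outside gene bodies. Beyond its end on chromosome 8, a span with 11 gene-model regions (chr8:55366172-55520537) held 5 that reached island levels, so a very low region lay beside high ones there.

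Regions with over 50% of their bases in H3K9me3 domains, a repressive histone mark, had medians close to those of the class, 0.390 RPKM for H3K14ac and 0.396 for KAT7. The 419 in the table's first set of domains had medians of 0.389 RPKM for H3K14ac and 0.414 for KAT7, and the 197 in its second set 0.403 and 0.411. Median levels of the class by autosome ran from 0.383 (chromosome 5) to 0.396 (chromosome 16) for H3K14ac and from 0.389 (chromosome 7) to 0.403 (chromosome 12) for KAT7.

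Olfactory receptor and zinc finger genes were the largest protein-coding families listed. Of 33 regions matching an olfactory receptor gene 0 had a KAT7 to H3K14ac ratio interval above 1, 2 lay below 1 and 31 included it, with medians of 0.432 RPKM for H3K14ac and 0.406 for KAT7. Of 67 regions matching a Zfp gene 33 lay above 1, 3 below and 31 included it, with medians of 0.377 and 0.414 RPKM. Over the whole class 24.8% lay above 1 and 15.9% below, and over gene bodies 33.9% and 8.98%. The median lengths of the 2 families were 1603 and 21402 bases, so their counting precision differs, and a difference between them was not tested.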
